A study of Mus musculus with 2 samples.

Results

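The genes described here are those of glutathione, thioredoxin and antioxidant defence, and 49 of the 8551 genes with a deposited value belonged to them. They were chosen by symbol alone. The rule took the glutathione S-transferases (GSTs, symbols beginning with Gst or Mgst), the glutathione peroxidases (Gpx), the peroxiredoxins (Prdx), every symbol beginning with Txn, the superoxide dismutases, and a short set made up of Gclc, Gclm, Gsr, Gss, Nqo1, Srxn1, Nfe2l2, Keap1 and Osgin1. Gsr, Sod1, Txnrd2 and the pi-class GSTs were not analysed here.

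The study asked how gene expression differs in the liver of a mouse model of type 2 diabetes. Livers were taken from male wild type and db/db mice, both labelled with a C57BL/6 background, at 9 weeks of age and about 3 h into the light phase, and 1 library of each group was sequenced. db/db mice carry a mutation of the leptin receptor gene in all their tissues from birth, so liver changes in this model come together with overeating and obesity. The mice came from more than 1 supplier, and the sources used here do not say plainly which group came from which. Whether RNA of several mice was combined in a library is not given in the sources used here.

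Glutathione is a small peptide with a reactive thiol. GSTs attach it to foreign and harmful compounds, and glutathione peroxidases use it to reduce peroxides. Peroxiredoxins reduce peroxides with electrons from thioredoxin, which thioredoxin reductase recharges with NADPH. The transcription factor NRF2, product of Nfe2l2, turns on many of these genes through antioxidant response elements in DNA, and KEAP1 binds NRF2 and marks it for breakdown. The liver is a main site of glutathione production and of detoxification by GSTs.

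Expression was measured as digital gene expression tags, which are short reads taken beside a DpnII cutting site of a transcript. Values are in TPM, which here means tags of a gene per 1000000 clean tags of the library and is not corrected for transcript length. The libraries held 10278533 clean tags (normal) and 13508232 clean tags (diabetic), of which the listed genes took 3809707 and 5993204. A gene was called higher or lower when the diabetic value differed at least 1.5-fold from the normal value with a false discovery rate (FDR) under 0.001 in an exact binomial test on the tags. With 1 library per group this test compares the 2 libraries and not the conditions, there is no replicate check, and all intervals are 95% intervals that cover counting error only.

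Most of the antioxidant genes had a higher value in the diabetic library. Of the 49 members, 27 were called higher, 3 were called lower and 19 were neither, while 22.9% of all listed genes were called higher and 8.19% lower. Osgin1, Prdx4 and Sod3 were the members called lower. The median log2 ratio of diabetic over normal was 0.88 for the members and 0.25 for all listed genes. By fold alone, 31 members were at least 1.5-fold higher and 4 at least 1.5-fold lower, beside 34.4% and 15.3% of all listed genes. Highly expressed genes are called more easily, and among genes whose mean reached 10 TPM, 25 of 39 members and 34.6% of 3673 listed genes were called higher.

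Because the median of all listed genes lay above 0, calls were also made relative to a common shift. TMM (trimmed mean of M values) scaling took 0.25 off every log2 ratio. On that scale 22 members were higher and 4 lower, beside 14.9% and 13.4% of all listed genes, and the median of the members was 0.62. The calls of Gstz1, Gstt1, Txn1, Txnrd1 and Gpx6 were lost under TMM and under each of the other 3 scalings tried, and Keap1 was called lower under all 4. When a variation of 20% between libraries was assumed on top of counting error, an alternative chosen after seeing the data, 6 members were called higher and 1 lower. In counts of tags the members together rose from 9419 to 16760 TPM, which is 1.78-fold, and their share of the tags of listed genes went from 2.54% to 3.78%. Gsta3 alone made up 36.5% and 39.1% of the members' tags.

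**Figure D1:**
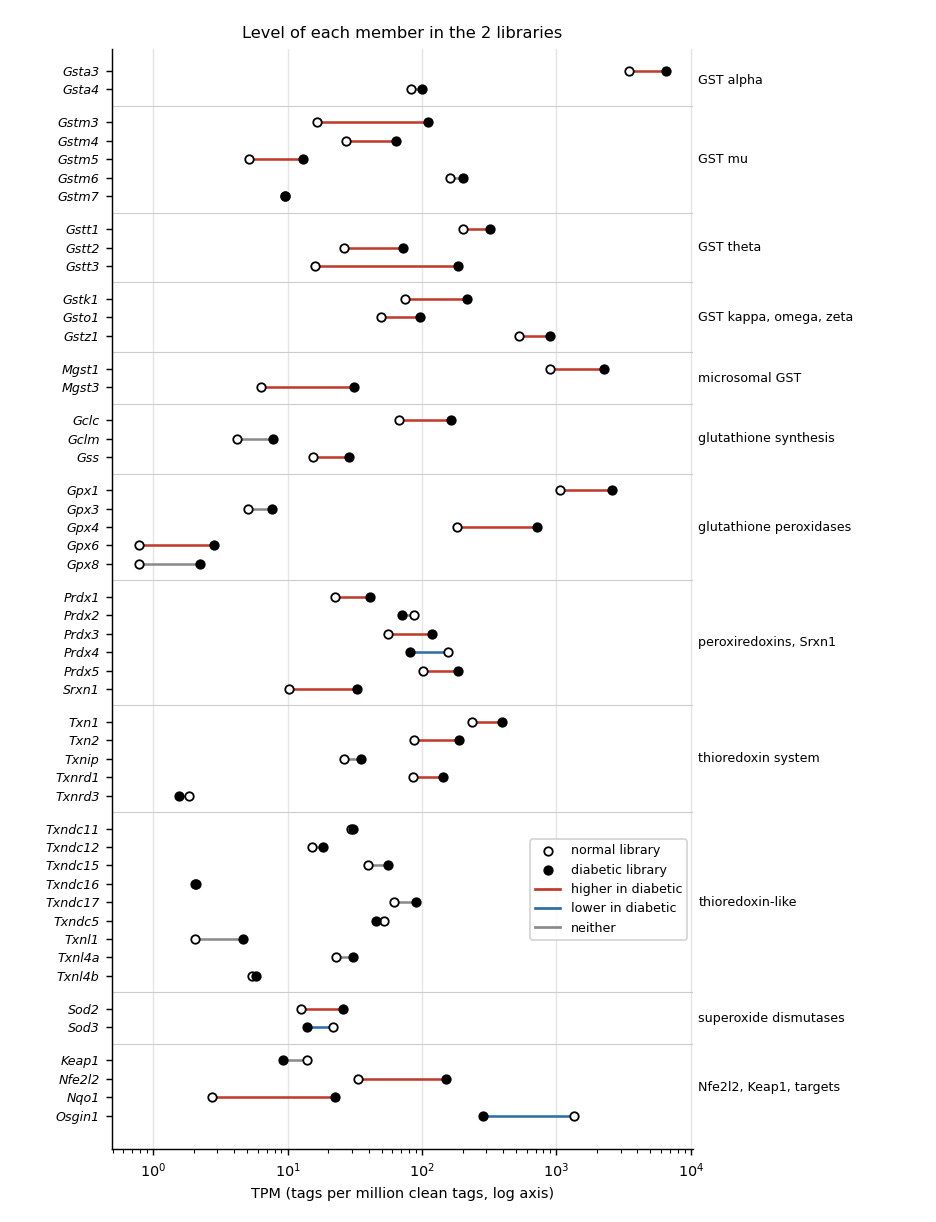
TPM of the 49 members (log axis) in the normal library (open circles) and the diabetic library (filled circles), grouped by role, with the line coloured by call. Most lines run to the right from normal to diabetic, and the longest to the left is that of Osgin1, from 1356 to 284 TPM.

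Most GSTs had a higher value in the diabetic library. Of 15 measured GST genes, 12 were called higher and none lower, beside 22.9% and 8.19% of all listed genes. The median log2 ratio was 1.25 for the GSTs and 0.25 for all listed genes. All 15 ratios were above 0 with scaling to clean tags, whereas Gstm7 lay below 0 under all 4 other scalings and Gsta4 under the median ratio scaling. The summed GST level went from 5536 to 11140 TPM, 2.01-fold, beside 1.20-fold for all listed genes together. The share of the GSTs among the members' tags went from 58.8% to 66.5%.

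The highest ratios of single GST genes were those of Gstt3 and Gstm3, of the theta and mu classes, cytosolic enzymes that differ in the substrates they accept. In TPM the largest increases were those of Gsta3 and Mgst1, at 3119 and 1373 TPM. Of the classes the microsomal GSTs had the highest median log2 ratio, at 1.83 beside 1.46 for theta and 1.25 for mu. That class had only 2 measured genes, so its median is the midpoint of Mgst1 (1.34) and Mgst3 (2.31). Gstt3, a theta-class gene, had 16.1 TPM (165 tags) in normal liver and 186 TPM (2516 tags) in db/db liver, with a log2 ratio of 3.54 (95% interval 3.31 to 3.77) and the highest of all members. Gstm3, a mu-class gene, went from 16.6 TPM (171 tags) to 111 TPM (1504 tags), with a log2 ratio of 2.74 (2.51 to 2.98). Both moved up the order of listed genes by TPM, as Gstt3 stood at rank 2502 in normal liver and at rank 397 in db/db liver, and Gstm3 at ranks 2442 and 643.

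Their close relatives moved less. Gstt1, the main theta-class gene in these tags, went from 201 to 322 TPM, which is a log2 ratio of 0.68 (0.61 to 0.76) that lost its call under all 4 other scalings. Gstt2 went from 26.4 to 72.8 TPM, with a log2 ratio of 1.46 (1.27 to 1.66). The intervals of the 3 theta genes did not overlap one another. Gstt1 gave 82.6% of the measured theta-class tags in normal liver and 55.4% in db/db liver, and Gstt3 gave 6.60% and 32.0%. These shares are of the 3 theta-class genes measured, out of 4 looked for.

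In the mu class, Gstm4 went from 27.1 to 64.4 TPM (log2 ratio 1.25, interval 1.06 to 1.45) and Gstm5 from 5.16 to 13.0 TPM (1.33, interval 0.88 to 1.80). Gstm6 and Gstm7, which were singled out here after their values were seen, were called neither, at 163 and 202 TPM for Gstm6 and at 9.53 and 9.55 TPM for Gstm7. Gstm6 gave 73.6% of the measured mu-class tags in normal liver and 50.4% in db/db liver, while the share of Gstm3 went from 7.53% to 27.9%. These shares are of the 5 mu-class genes measured, out of 7 looked for. Gstm1 and Gstm2 were not among the 5, so the shares do not rank Gstm6 against them. The mu-class genes stand together in the genome, as do the theta-class genes. In RefSeq's order of protein-coding genes (GRCm38.p6) Gstt3 is next to Gstt1, and Gstm5, Gstm7, Gstm6 and Gstm3 follow each other without a gene between them, so direct neighbours differed in their ratios.

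**Figure D2:**
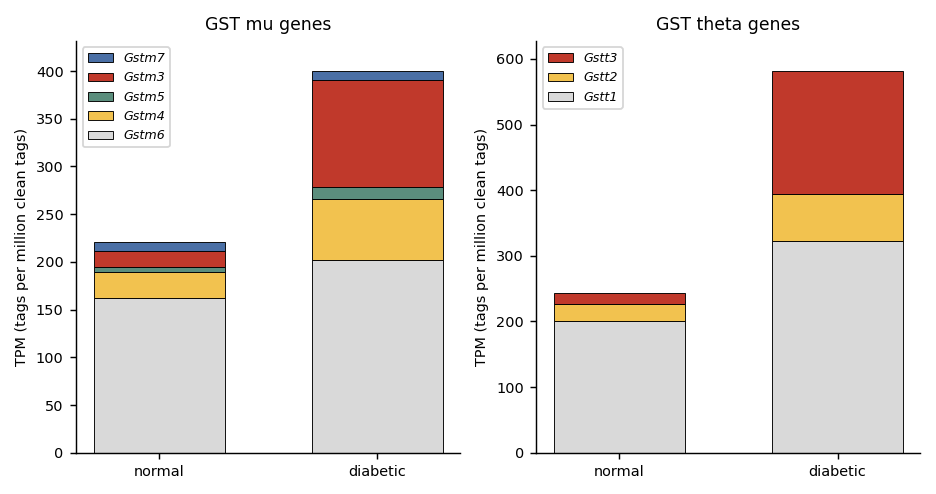
Stacked TPM of the measured mu-class genes (left) and measured theta-class genes (right) in the normal and diabetic libraries, 1 library each. There are no error bars because there are no replicates. The segments of Gstm3 (16.6 to 111 TPM) and Gstt3 (16.1 to 186 TPM) widen most.

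The remaining GSTs include the most abundant tags of the whole gene set. Gsta3, an alpha-class gene, had 3437 TPM in normal liver and 6556 TPM in db/db liver, with a log2 ratio of 0.93 (0.91 to 0.95), and stood at rank 12 and rank 4 of all listed genes. Gsta4, whose product acts on lipid peroxidation products such as 4-hydroxynonenal and which was singled out after its values were seen, had 82.7 and 100.4 TPM and was called neither. Mgst1, a membrane-bound GST and peroxidase, went from 894 to 2267 TPM with a log2 ratio of 1.34 (1.31 to 1.38). Its relative Mgst3, which takes part in lipid peroxide and leukotriene metabolism, went from 6.32 TPM (65 tags) to 31.3 TPM (423 tags), a log2 ratio of 2.31 (1.93 to 2.71).

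Gstz1, Gstk1 and Gsto1 stand for 3 further classes and were all called higher. Gstz1 encodes maleylacetoacetate isomerase of tyrosine breakdown and had 528 and 893 TPM, which is a log2 ratio of 0.76 (0.71 to 0.80) that lost its call under all 4 other scalings. Gstk1, an enzyme of mitochondria and peroxisomes, had 74.1 and 216 TPM, with a log2 ratio of 1.54 (1.42 to 1.66). Gsto1, whose product also reduces dehydroascorbate, had 49.4 and 95.9 TPM, with a log2 ratio of 0.96 (0.81 to 1.11).

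Of the 3 measured genes for making glutathione, 2 were called higher. Gclc, the catalytic subunit of glutamate-cysteine ligase and the rate-limiting enzyme of glutathione synthesis, had 67.5 TPM in normal and 165 TPM in db/db liver, with a log2 ratio of 1.29 (1.17 to 1.42). Gclm, the modifier subunit of the same enzyme, had 4.18 TPM (43 tags) and 7.77 TPM (105 tags), and its log2 ratio of 0.89 (0.37 to 1.44) was not called, with an FDR of 0.00121 by the exact binomial test. Gss, which carries out the final step of synthesis, had 15.5 and 28.7 TPM and a log2 ratio of 0.89 (0.62 to 1.17). The intervals of all 3 lay wholly above the median of all listed genes.

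Among the glutathione peroxidases, Gpx1 and Gpx4 accounted for nearly all tags and both rose. Gpx1, the main cytosolic enzyme, had 1065 and 2605 TPM, with a log2 ratio of 1.29 (1.26 to 1.32). Gpx4, which reduces phospholipid hydroperoxides in membranes and guards against ferroptosis, had 183 and 717 TPM, with a log2 ratio of 1.97 (1.90 to 2.04). Gpx4 thus gave 14.6% of the tags of the 5 measured genes of this family in normal liver and 21.5% in db/db liver. The other 3 were sparse. Gpx6 was called higher on 8 and 38 tags, with a log2 ratio of 1.85 (0.73 to 3.16) that lost its call under all 4 other scalings and in the Audic-Claverie test. Gpx8, an enzyme of the endoplasmic reticulum, had 8 and 30 tags (exact binomial FDR 0.0112), and Gpx3, the secreted plasma enzyme, had 52 and 103 tags (FDR 0.0288), so that neither was called.

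Gpx1, Gpx3, Gpx4, Txnrd1 and Txnrd3 encode selenoproteins, which carry selenocysteine in their active site. Of these 5 members, 3 were called higher, namely Gpx1, Gpx4 and Txnrd1, beside 22.9% of all listed genes. The median log2 ratio of the 5 was 0.75, beside 0.88 for the 44 members that are not in that set and 0.25 for all listed genes.

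The peroxiredoxins moved in both directions. Prdx3, the mitochondrial enzyme, had 55.8 TPM in normal and 119 TPM in db/db liver, with a log2 ratio of 1.10 (0.96 to 1.24). Prdx5, found in mitochondria, peroxisomes and cytosol, had 102 and 184 TPM (log2 ratio 0.85, interval 0.75 to 0.96), and the cytosolic Prdx1 had 22.4 and 41.1 TPM (0.88, interval 0.65 to 1.10). The calls of Prdx1 and Prdx5 were lost under the median ratio scaling and, for Prdx5, also under the upper quartile scaling. In contrast, Prdx4, the peroxiredoxin of the endoplasmic reticulum, fell from 157 to 81.4 TPM, which is 1.93-fold lower (1.78 to 2.08), with a log2 ratio of -0.95. Prdx2, the other main cytosolic enzyme, had 86.6 and 70.3 TPM and a log2 ratio of -0.30 (-0.43 to -0.17), short of 1.5-fold.

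Prdx2 was called lower under the median ratio scaling. Srxn1, sulfiredoxin, restores peroxiredoxins that have been over-oxidised. It had 10.3 TPM (106 tags) and 32.9 TPM (444 tags), a log2 ratio of 1.67 (1.36 to 1.99) and the highest of this group.

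In the thioredoxin system, both thioredoxins and the cytosolic reductase rose. Txn1, cytosolic thioredoxin, had 235 and 395 TPM (log2 ratio 0.75, interval 0.68 to 0.82), and Txnrd1, its reductase, had 85.9 and 144 TPM (0.75, interval 0.63 to 0.86). Both calls were lost under all 4 other scalings, where the ratios of Txn1 and Txnrd1 lay between 0.44 and 0.50 on the log2 scale. Txn2, the mitochondrial thioredoxin, had 86.6 and 188 TPM and a log2 ratio of 1.12 (1.00 to 1.23), and it was called under each scaling. Txnip, which binds thioredoxin and inhibits it, had 26.3 and 35.3 TPM with a log2 ratio of 0.43 (0.21 to 0.65) and was not called. Txnrd3 had 19 and 21 tags, too few to tell a difference of 1.5-fold in either direction, with a log2 interval of -1.22 to 0.73.

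The thioredoxin-domain and thioredoxin-like genes showed small differences for the most part. None of the 9 was called, and their log2 ratios ran from -0.19 to 1.19 with a median of 0.27, beside 0.25 for all listed genes. Many of these proteins fold or reduce other proteins rather than remove peroxides. The highest ratio, singled out after the values were seen, was that of Txnl1, with 21 tags in normal and 63 tags in db/db liver and an exact binomial FDR of 0.00154. Summed, the 9 genes had 231 and 284 TPM, 1.23-fold, close to the 1.20-fold of all listed genes together.

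The superoxide dismutases moved in opposite directions. Sod2, the manganese enzyme of mitochondria, rose from 12.7 TPM (130 tags) to 25.8 TPM (349 tags), with a log2 ratio of 1.03 (0.74 to 1.33). Sod3, the extracellular enzyme, fell from 21.8 TPM (224 tags) to 14.0 TPM (189 tags), which is 1.56-fold lower (1.28 to 1.90). The intervals of the 2 log2 ratios did not overlap.

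**Figure D3:**
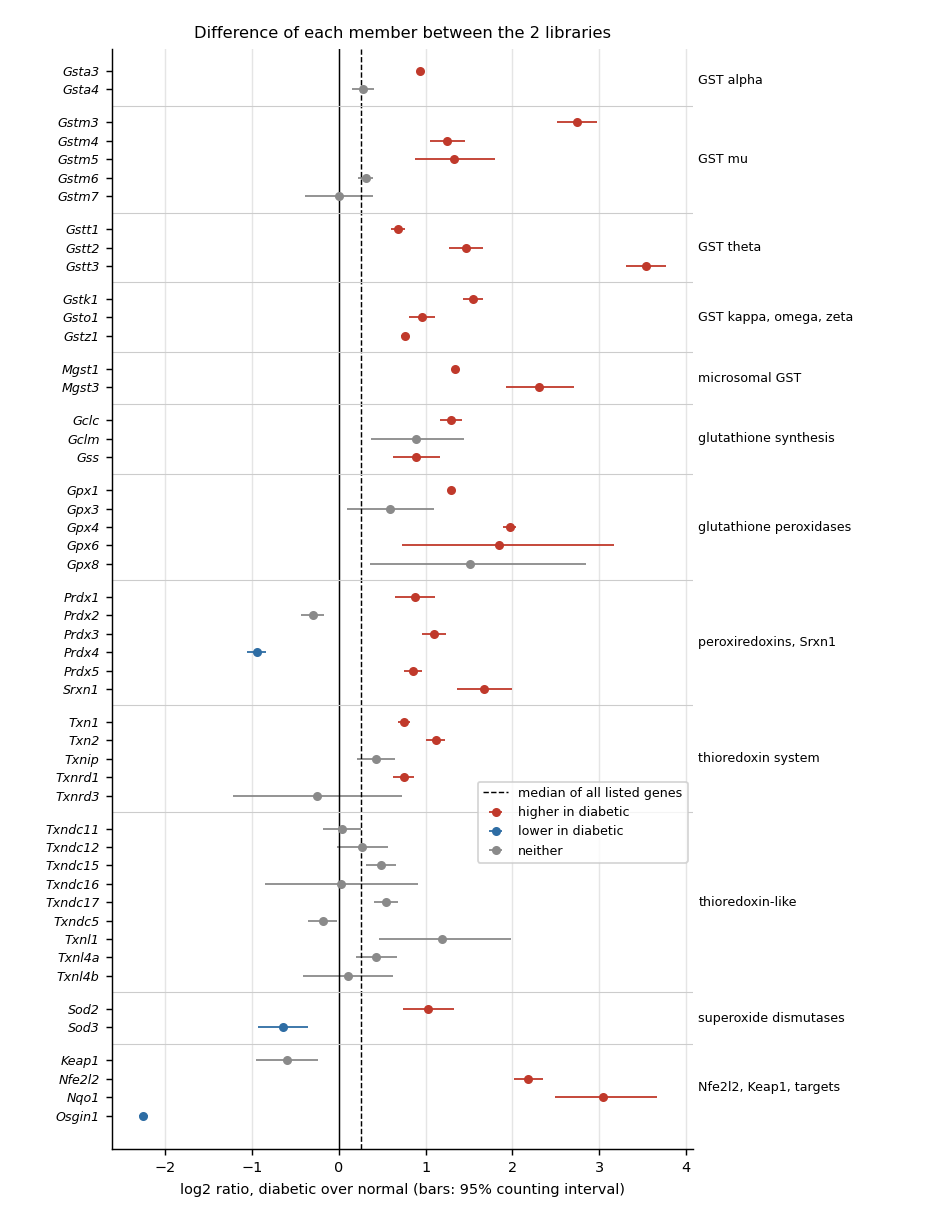
Log2 ratio of diabetic over normal for the 49 members, grouped by role, with bars for the 95% counting interval and a dashed line at the median of all listed genes (0.25). The intervals of 32 members lie wholly above the dashed line and those of 6 wholly below it.

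Nfe2l2 rose, while Keap1 had a lower value that was not called. Nfe2l2, the gene of NRF2, had 33.4 TPM (343 tags) in normal liver and 151 TPM (2044 tags) in db/db liver, 4.53-fold higher (4.04 to 5.10), with a log2 ratio of 2.18. Keap1 had 14.0 TPM (144 tags) and 9.25 TPM (125 tags), with a log2 ratio of -0.60 (-0.96 to -0.24). Keap1 was not called, at an exact binomial FDR of 0.00177, but was called lower under all 4 other scalings. Messenger levels say nothing of how much NRF2 protein was present or active.

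Known target genes of NRF2 did not all move the same way. Nqo1, a quinone reductase and a widely used NRF2 target, had 2.72 TPM (28 tags) and 22.5 TPM (304 tags), a log2 ratio of 3.05 (2.49 to 3.66). Srxn1 and Gclc, described above and also known targets, were higher as well. Osgin1, an oxidative stress-induced growth inhibitor and likewise described as a target of NRF2, went the other way. It fell from 1356 TPM (13936 tags) to 284 TPM (3839 tags), which is 4.77-fold lower (4.60 to 4.95), and moved from rank 37 to rank 262 of all listed genes. Without Osgin1 the summed level of the members would have gone from 8063 to 16476 TPM, 2.04-fold in place of 1.78-fold.

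**Figure D4:**
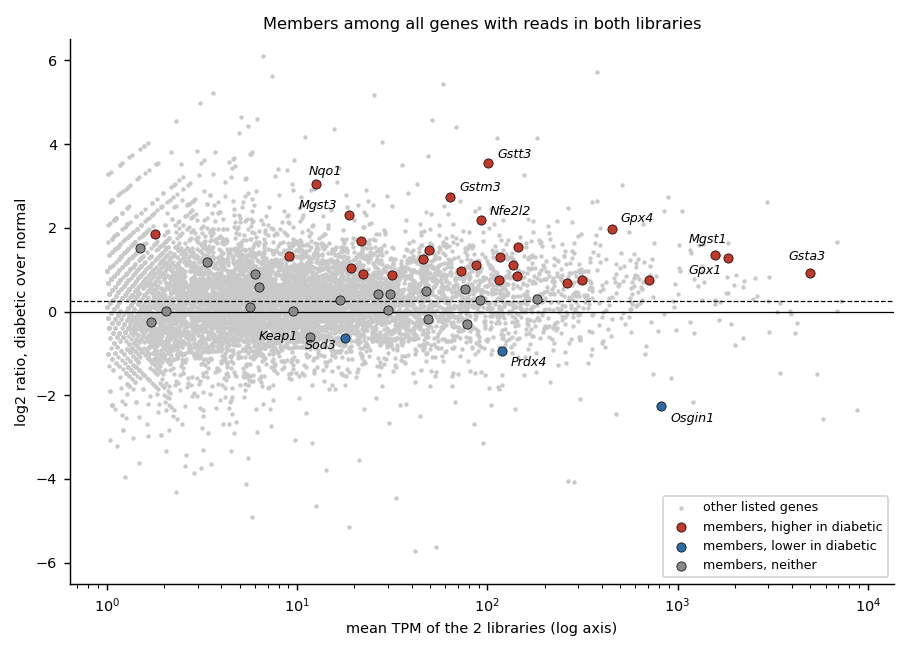
Mean TPM of the 2 libraries (log axis) against the log2 ratio of diabetic over normal for the 8499 genes with tags in both libraries, of which 5 lie beyond the axis limits, with members coloured by call and a dashed line at the median of all listed genes. Osgin1 stands out at the lower right with a log2 ratio of -2.25, and Gstt3 (3.54) and Nqo1 (3.05) lie at the upper edge of the cloud.

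Promoter sequences were searched for the core of the antioxidant response element, TGACNNNGC on either strand, where N is any base. The windows came from RefSeq (GRCm38.p6) and run from 250 bases before to 50 bases after each start site. Of the 49 members, 43 had a window, and Gclc, Gsta4, Gstt2, Sod3, Txnl1 and Txnl4a had none in the table used here. The core was present for 11 of the 43 members, or 25.6%, beside 14.0% of all 27025 genes with a window and 16.9% of the 6623 listed genes with a window. Since some genes have several start sites, the same count by window was 11 of 58 for the members, or 19.0%, beside 12.4% of all windows. Of the 11 members with a core, 7 were among the 25 windowed members called higher, 4 among the 16 called neither and 0 among the 2 called lower. Neither Nqo1 nor Osgin1 had a match in the window, which says only that these letters are not there. The 25 bases around each core follow, shown because they let the flanks be compared, read 5′ to 3′ on the strand that carries the core, with the core in capitals. The first lines are the members called higher.
Gsta3 (chr1:21240456-21240480, plus strand): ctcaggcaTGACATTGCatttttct
Gstm5 (chr3:107895804-107895828, plus strand): ccgcccacTGACCACGCggagggcg
Mgst1 (chr6:138140463-138140487, minus strand): ccgcctccTGACCGTGCcaagcccc
Nfe2l2 (chr2:75704887-75704911, minus strand): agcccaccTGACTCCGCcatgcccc
Prdx1 (chr4:116685458-116685482, minus strand): acgggggaTGACTCAGCgctttccc
Srxn1 (chr2:152105544-152105568, minus strand): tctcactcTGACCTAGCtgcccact
Txnrd1 (chr10:82859106-82859130, minus strand): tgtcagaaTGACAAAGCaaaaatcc
Gclm (chr3:122245415-122245439, minus strand): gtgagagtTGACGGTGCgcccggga
Gstm7 (chr3:107931727-107931751, minus strand): tgaagaccTGACAAAGCgaagccaa
Txndc11 (chr16:11134757-11134781, minus strand): tggaaggcTGACGCGGCcgcgagtg
Txndc5 (chr13:38528036-38528060, minus strand): ctcgccgcTGACGTGGCgctagccg
The 7 members called higher carried 7 different cores. The core of Prdx1, TGACTCAGC, lay 133 bases before the start site on the strand opposite to the gene. Positions ranged from 241 bases before the start in Txndc11 to base 29 in Srxn1, with the start site counted as base 1 and the core placed by its leftmost base in the direction of the gene. A match of these letters is a description and not evidence of binding.

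**Figure D5:**
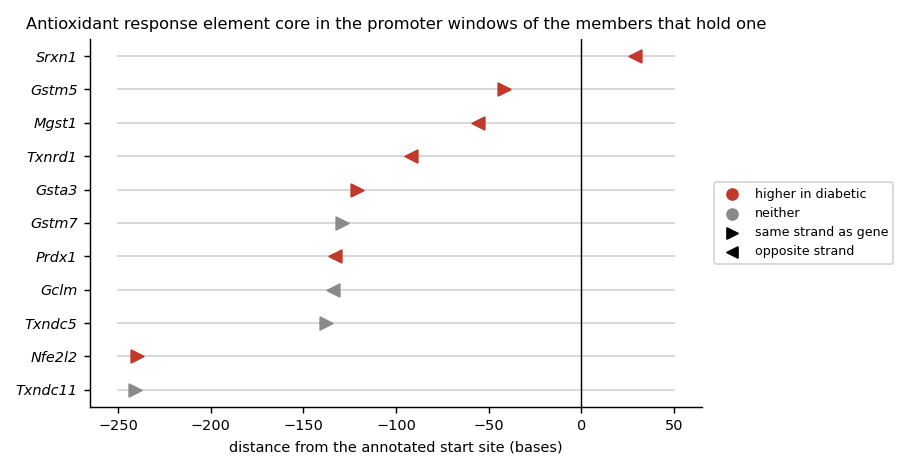
Position of the antioxidant response element core in the promoter windows of the 11 members that hold one, in bases from the annotated start site, with arrows for its strand relative to the gene and colour for the call. The cores of the 4 uncalled members lie from -241 to -129, those of the 7 called members from -240 to 29, and only that of Srxn1 lies after the start site, at base 29 with the start site counted as base 1.

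Other genes of the same pathways gave a mixed picture. Of 28 further genes of the NRF2 pathway, 21 were measured, 10 were called higher and 2 lower, and the median log2 ratio was 0.76. Over all listed genes 22.9% were called higher and 8.19% lower, with a median of 0.25. Under TMM scaling the median of the 21 genes was 0.51. The largest differences were in Abcc4, Mafg, Idh1, Ugdh and G6pdx. Abcc4, an exporter, was sparse, with 0.58 TPM (6 tags) and 4.89 TPM (66 tags), a log2 ratio of 3.08 (1.87 to 4.56). Mafg, a small MAF partner of NRF2, had 5.84 and 23.3 TPM (log2 ratio 2.00). The NADPH-producing Idh1 had 135 and 467 TPM (1.80), and Ugdh, which supplies UDP-glucuronate, had 66.9 and 231 TPM (1.79). G6pdx encodes the entry enzyme of the pentose phosphate pathway and a source of NADPH. It fell from 8.46 TPM (87 tags) to 2.52 TPM (34 tags), with a log2 ratio of -1.75 (-2.37 to -1.16). The second gene called lower, named because there were only 2, was Nfe2l1, a relative of Nfe2l2, with 19.5 and 11.0 TPM.

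Of 25 further genes of glutathione and peroxide metabolism, 18 were measured, 7 were called higher and 0 lower, at a median log2 ratio of 0.50. Over all listed genes 22.9% were called higher and 8.19% lower, with a median of 0.25. Under TMM scaling the median of the 18 genes was 0.24, and 10 of them lay above 0. Cth, which makes cysteine for glutathione, had 99.8 and 613 TPM (log2 ratio 2.62), and the mitochondrial glutaredoxin Glrx5 had 90.9 and 333 TPM (1.87). Ethe1, a mitochondrial persulfide dioxygenase, Nnt, which makes mitochondrial NADPH, and Hagh, a glyoxalase, had log2 ratios of 1.15, 1.00 and 0.98. By fold alone, 2 genes of this list were at least 1.5-fold lower. Cbs, of the same list and singled out after its values were seen, fell from 536 to 359 TPM. That is 1.49-fold lower, just short of a call.

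Markers of the cell types in liver were read beside these results. The shares to set beside their calls are 22.9% higher and 8.19% lower over all listed genes. Hepatocyte markers (7 of 10 measured) summed to 16275 TPM in normal and 16308 TPM in db/db liver, with 1 called higher and 1 lower. Those were Cps1 (130 and 317 TPM) and Hnf4a (96.8 and 46.2 TPM). Under TMM scaling the median log2 ratio of the hepatocyte markers was -0.25, beside 0.00 for all listed genes. Macrophage and Kupffer cell markers (8 of 12 measured) summed to 326.5 and 193.7 TPM, with 1 higher and 4 lower. Most of that fall was in C1qa, from 176 to 50.7 TPM. Csf1r (21.7 and 10.1 TPM), C1qc (11.1 and 3.18 TPM) and Emr1 (8.95 and 4.37 TPM) were also called lower. In contrast, C1qb was called higher, from 38.1 to 57.8 TPM. The median log2 ratio of the 8 was -0.71, beside 0.25 for all listed genes. Cd5l (64.7 and 62.9 TPM), Cd68 and Clec4f were called neither. Endothelial markers (9 of 9) summed to 137 and 124 TPM, and stellate cell markers (7 of 9) to 168 and 215 TPM. Cholangiocyte markers (3 of 6) summed to 61.5 and 107 TPM, of which Spp1, the only 1 of the 3 called higher, made up 57.2 and 103 TPM. Erythroid markers (1 of 9) summed to 51.9 and 44.2 TPM, T and NK cell markers (1 of 8) to 1.95 and 1.55 TPM, and B cell markers (2 of 6) to 5.35 and 3.77 TPM. Sex-biased liver genes also differed, although both libraries are labelled male, with 8 of 8 measured male-biased genes called lower and 15 of 16 measured female-biased genes called higher. The part of these differences in the levels of the antioxidant genes was not tested, and in whole liver fewer cells of a type and less RNA per cell cannot be told apart.

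Tags can be shared between similar genes, and while the study separated tags that map to unique genes from those that map to multiple genes, its methods do not say which of them the values count. On GENCODE transcripts of GRCm38, the last DpnII site before the 3′ end gave tags of an assumed 20 bases for all 49 members. For 39 members no such tag occurred in a transcript of another gene. Tags beside the other DpnII sites of the members were not checked. Gpx4, Txn1 and Txndc17 had only shared tags, among them tags common to the pseudogenes Gpx4-ps2 and Txn-ps1, and 7 further members, Gstm6, Gstt3, Gstz1, Prdx1 and Prdx2 among them, had at least 1 shared tag beside their own, so their values are less certain.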

How the data were processed

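The authors extracted total RNA from liver, isolated poly(A) RNA, primed cDNA with random hexamers, cut it with DpnII and read the tags by Illumina sequencing. They removed adaptors, kept clean tags, assigned them to RefSeq genes and deposited values that they call TPM, which are RPM values (reads per 1000000 clean tags, rounded to 2 decimals). Where a gene had no tag the authors wrote 0.01, and the lowest mean of a listed gene is 1.00 TPM. The submitters' processing notes name mm9. The aligner is not given in the sources used here. The authors distinguished tags of unique and of multiple genes, and their methods do not state whether the deposited values count the unique ones alone. No column of values per sample was left unused.

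Whole tags were recovered from the steps of the deposited values, within 0.01 of a tag beyond rounding, for 8513 of 8513 nonzero values of the normal library and 8536 of 8537 of the diabetic library. Fold changes came from the deposited values. For the FDR, the tags of a gene in both libraries were compared by an exact binomial test (two-sided), with Benjamini-Hochberg adjustment over 8551 genes, and intervals are exact (Clopper-Pearson) at 95%. The sources used here name no molecular identifiers, so tags need not be independent molecules. Calls needed a fold of at least 1.5 and an FDR under 0.001, the thresholds of the study's methods. Alternatives were 4 other scalings, pseudocounts of 0.1 and 1 TPM, a mean of at least 5 TPM, a 2-fold threshold, the Audic-Claverie test and, chosen after seeing the data, an assumed variation of 20% between libraries. Every called member was named, as were members that define a role whatever their change, and of other gene lists at most the 5 largest called differences. The members and lists were chosen with earlier results of these data known. The scripts were tested on simulated data. The software was Python 3.11.15 with scipy 1.17.1, numpy 2.4.6 and pandas 2.3.3, and figures were drawn with matplotlib 3.10.9.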

Additional observations from a re-analysis of the deposited data

How the results depend on the processing

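The median log2 ratio of the members, 0.88 with scaling to clean tags, was 0.62 with the sum of listed genes, 0.62 with TMM, 0.57 with the median ratio and 0.61 with the upper quartile, and 0.84 with a pseudocount of 1 TPM and 0.86 at a mean of at least 5 TPM. Members called lower numbered 3, but 5 under the median ratio scaling, where Keap1 and Prdx2 joined, and 1 at the 2-fold threshold, while over all listed genes the count went from 700 to 1262 and 387. With an assumed variation of 20% between libraries, an alternative chosen after seeing the data, 6 members were called higher (Gpx4, Nfe2l2, Gstm3, Gstt3, Mgst3 and Nqo1) and 1 lower (Osgin1), beside 241 and 77 of all listed genes. Calls of higher numbered 20 to 22 under the 4 other scalings, 18 at the 2-fold threshold and 26 in the Audic-Claverie test, beside 1133 to 1271, 1236 and 1928 of all 8551 listed genes. At a mean of at least 5 TPM, 44 members were kept, with 27 called higher, as Gpx6 dropped out and Gclm was called. Of 485 values of single members under these alternatives, 421 had the same call, or lack of a call, as with clean tags and the exact binomial test. A call was lost in 58, gained in 6 and changed direction in 0. That last count could not have been otherwise, since no alternative could turn the sign of a called ratio. The scalings took at most 0.31 off a log2 ratio, and the lowest ratio called higher was 0.68. The planned edgeR exact test was not run. No paired analysis was possible because each group has 1 library. Variation between mice is not measured here, and members under 100 tags, 12 in normal liver and 6 in db/db liver, limit what small differences could be seen.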

Other observations

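Genes for making selenoproteins and the carrier gene Sepp1 were read because several antioxidant enzymes carry selenocysteine. Of these 9 genes, 6 were measured, 2 were called higher and 0 lower, with a median log2 ratio of 0.45. Over all listed genes 22.9% were called higher and 8.19% lower, with a median of 0.25. The 2 called were Sepp1 and Sepsecs, so Sepsecs was the only gene for making selenoproteins called. Sepp1, the selenium carrier that the liver secretes into plasma, had 3289 TPM in normal and 10422 TPM in db/db liver, with a log2 ratio of 1.66 (95% interval 1.65 to 1.68). Sepsecs, which makes the selenocysteine carried by its transfer RNA, had 1.36 TPM (14 tags) and 4.52 TPM (61 tags), a log2 ratio of 1.73 (0.87 to 2.68).

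Catalase, the peroxisomal enzyme that breaks down hydrogen peroxide without glutathione or thioredoxin, had 23.8 and 23.5 TPM, which is a log2 ratio of -0.02 (-0.26 to 0.23). It was singled out after its values were seen.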
